A study of Mus musculus with 4 samples.

Results

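The Wnt pathway was described in 57 genes: the Wnt ligands, their Frizzled receptors and Lrp co-receptors, the secreted antagonists, the R-spondin axis, the nuclear TCF/LEF factors and the feedback inhibitors. They were taken by gene name from the 19938 named genes of the table, and Tcf7, which was also sought, had no singly named probe set and was not analysed here. Mouse brain at embryonic day 17.5 was dissected into cerebellum, olfactory bulb (the bulb), pontine nucleus and superior colliculus (the colliculus). The pontine nucleus lies in the hindbrain and sends mossy fibres to the cerebellum, and the colliculus forms part of the dorsal midbrain and receives retinal input. All embryos were of the outbred ICR stock, and no treatment or mutation is given. Each region was hybridised to 1 Affymetrix array as a pool, of 13 mice for cerebellum, 14 mice for bulb, 15 mice for pontine nucleus and 16 mice for colliculus. With 1 array per region there is no replicate error, no SD and no test, and a difference between regions cannot be told apart from a difference between single dissections.

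Wnt proteins are secreted, lipid-modified ligands that bind a Frizzled receptor together with Lrp5 or Lrp6. In the canonical branch this protects beta-catenin from the destruction complex that axin scaffolds, and beta-catenin then enters the nucleus and activates genes through TCF/LEF factors. In the developing brain the pathway is known for patterning the midbrain and its boundary with the hindbrain, for control of progenitor division, and for axon guidance and synapse formation.

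Levels are log2 signals, so a difference of 1 is 2-fold. A gene was compared where its highest level exceeded 8.56, the median of all gene levels, which 36 of the 57 members and 10908 genes in all did. Just outside and just inside that floor lay Wif1, whose highest level was 8.54, and Wnt9b, at 8.62. A member was called higher in a region when every other array read at least 1 log2 unit less, and lower when every other array read at least 1 log2 unit more. Probe sets differ in brightness for reasons other than abundance, so levels are compared within a gene and never between genes. A background set of 202 genes for vomeronasal receptors and beta defensins had a 95th percentile level of 7.33. Of the differences between 1 array and the mean of the others in this set, 95% fell between -0.32 and 0.35. Where the lower of the values compared lies under 7.33 the difference is a lower bound. In bulk tissue, fewer cells of a type and less RNA per cell cannot be told apart.

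The array medians lay between 8.07 and 8.13, and the labelled regions were checked against marker genes. Of 8 cerebellar markers 7 were higher in the cerebellum, of 9 bulb markers all 9 were higher in the bulb, of 8 pontine markers 7 were higher in the pontine nucleus, and of 8 collicular markers 6 were higher in the colliculus. The exceptions were Barhl1, Nfib, Tal2 and Lhx1. Barhl1 was also on the pontine list and was higher there, and Lhx1 was higher in the cerebellum.

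The Wnt genes varied widely over the regions. Of the 36 members above the floor, 20 (55.6%) had a range of 1 log2 unit or more over the 4 arrays, against 15% of all genes compared. Over all 57 members without the floor the count was 22 (38.6%), against 9.33%. The median range was 1.12 log2 units for the 36 members and 0.39 for all genes compared. By the stricter rule of 1 region against the other 3, 9 of the 36 members (25%) were called, against 4.58% of all genes compared, and without the floor 9 of 57 were, against 2.74% of all genes. The nuclear factors Tcf7l2 and Lef1 were higher in the colliculus, the ligand Wnt7a and the antagonists Sfrp1 and Frzb were higher in the bulb, and the antagonist Dkk2 was higher in the pontine nucleus. Sfrp2 and the receptors Fzd1 and Fzd8 were lower in the pontine nucleus. No member was called in the cerebellum, where 0.605% of all genes compared were called higher and 0.156% lower, and none was lower in the bulb or the colliculus, where 0.431% and 0.165% of all genes compared were.

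**Figure D1:**
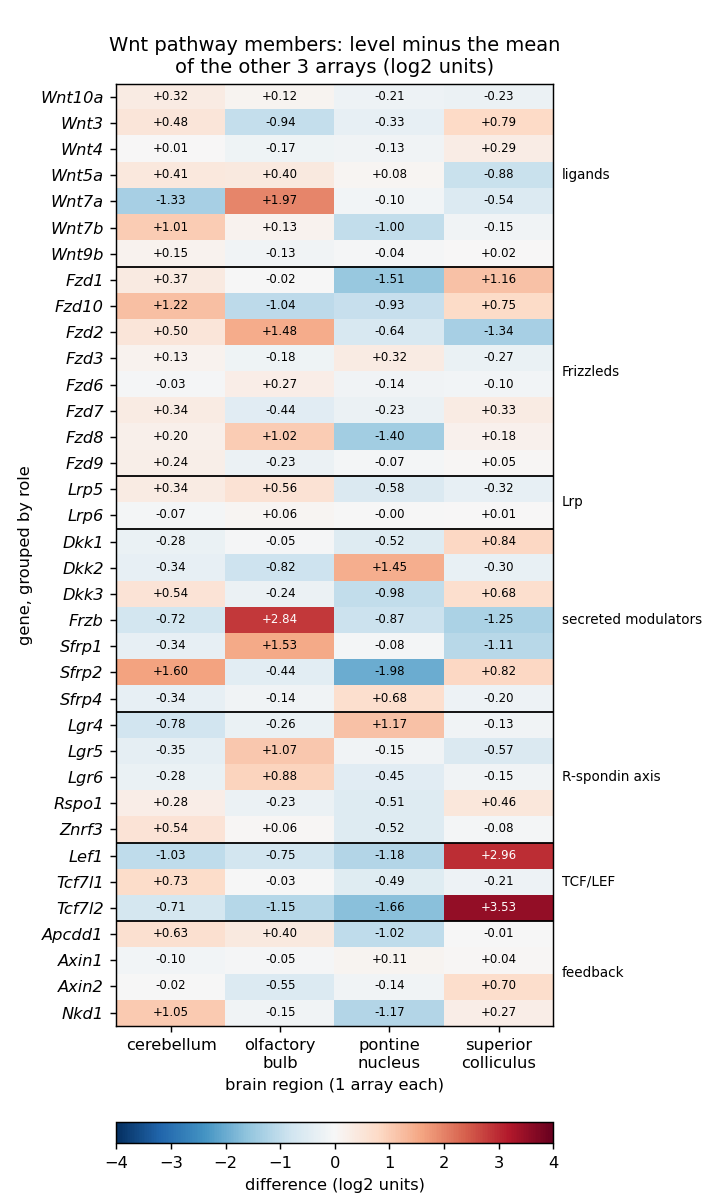
The 36 members above the level floor are rows grouped by role, the 4 regions are columns, and each cell gives the level in that region minus the mean of the other 3 arrays in log2 units (red higher, blue lower). The darkest cells are Tcf7l2 and Lef1 in the colliculus and Frzb in the bulb, and the pontine column is mostly blue.

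The nuclear end of the pathway set the colliculus apart. Tcf7l2 and Lef1 encode HMG-box factors that bind DNA and recruit beta-catenin, and they were the only members called higher there, 2 of 36 against 0.715% of all genes compared. Tcf7l2 read 12.88 in the colliculus, against 9.70 in the cerebellum, 9.37 in the bulb and 8.99 in the pontine nucleus, 9.06-fold above the next highest array. Lef1 read 11.34 in the colliculus, against 8.35, 8.56 and 8.24 in the same order, 6.87-fold above the next. On the other 3 arrays Lef1 was at or under the floor. Tcf7l1, which encodes the family member best known as a repressor, did not share the pattern: it read 8.59 in the colliculus, 9.30 in the cerebellum, 8.73 in the bulb and 8.38 in the pontine nucleus. All 3 factors were lowest in the pontine nucleus.

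The region before the start of Lef1 and Tcf7l2 is shown because these members moved together. Each is 300 bases long, from 250 before to 50 after the most upstream of the gene's listed starts (4 for Lef1, 2 for Tcf7l2), taken from RefSeq on build GRCm38.p6, at chr3:131110047-131110346 and chr19:55741560-55741859, both on the plus strand. Capitals mark CTTTG or its reverse complement CAAAG, the core of the site that TCF/LEF factors bind.
Lef1: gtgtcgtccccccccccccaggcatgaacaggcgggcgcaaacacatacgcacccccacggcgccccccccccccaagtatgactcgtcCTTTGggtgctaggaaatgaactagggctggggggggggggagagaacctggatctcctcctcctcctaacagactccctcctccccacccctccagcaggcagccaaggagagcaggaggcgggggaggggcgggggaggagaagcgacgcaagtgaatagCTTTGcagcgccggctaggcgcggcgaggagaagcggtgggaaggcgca
Tcf7l2: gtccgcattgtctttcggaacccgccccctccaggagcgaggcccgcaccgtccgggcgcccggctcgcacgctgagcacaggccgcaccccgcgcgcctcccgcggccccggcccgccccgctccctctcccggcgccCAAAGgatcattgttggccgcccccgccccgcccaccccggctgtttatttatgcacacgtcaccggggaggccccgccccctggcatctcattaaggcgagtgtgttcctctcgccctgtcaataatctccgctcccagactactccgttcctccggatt
The Lef1 window held 2 cores and the Tcf7l2 window 1. The core is common: it lay in 53.9% of all 32851 promoter windows and in 48.9% of the 45 windows of members, which covered 37 of the 57. The longer form CTTTGAT, which contains the core, was searched on both strands and lay in 3.73% of all windows and in 2 of the 45, those of Wnt11 and Wnt5b. A match is a description of these letters and not evidence of binding.

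Genes of the thalamus and pretectum, which lie next to the colliculus and are known to express Tcf7l2 and Lef1, moved with these factors in part. Of 11 measured markers other than members 9 passed the floor, and 8 of the 9 lay above the mean of the rest in the colliculus, with a median difference of 0.88. Of the 9, only Lhx9 and Ntng1 were highest in the colliculus. Lhx2 and Calb2 were highest in the bulb, Foxp2 in the cerebellum, and Prox1, Slc6a4, Irx1 and Cacna1g in the pontine nucleus. The mean level of the 11 was 10.15 in the colliculus, against 9.32 in the cerebellum, 9.41 in the bulb and 9.09 in the pontine nucleus. Lhx9 passed the size rule there, Prox1, Slc6a4 and Irx1 passed it in the pontine nucleus instead, and Gbx2, a defining gene of the thalamus, stayed under the floor and read 7.96 in the colliculus against 8.44 in the cerebellum. Whether such tissue contributed was not tested. Endothelial cells of the embryonic brain also use Lef1, and the mean level of 12 endothelial genes was 9.22 in the colliculus, against 9.07, 9.24 and 9.16 in the cerebellum, the bulb and the pontine nucleus.

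**Figure D2:**
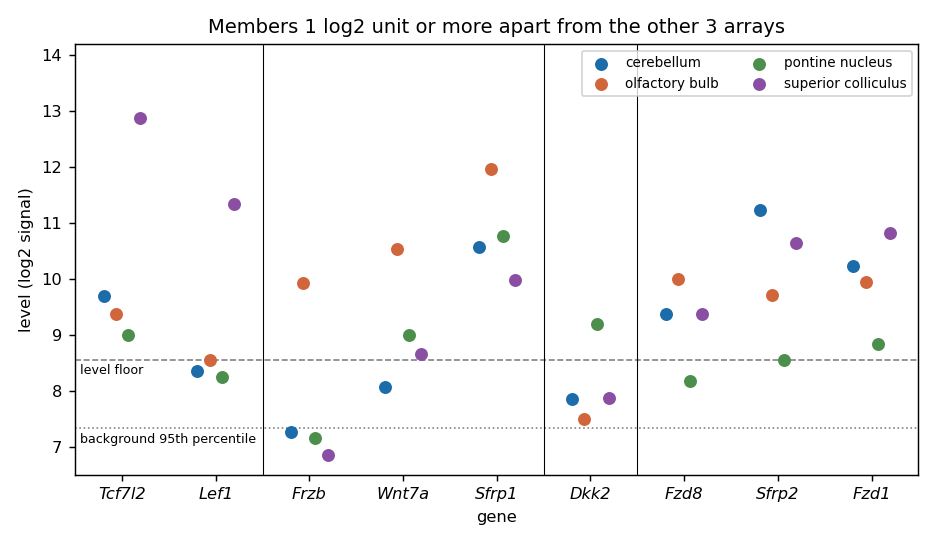
The 9 members past the size rule are shown on the horizontal axis and their log2 signal on the vertical axis, with 1 point per array coloured by region; the dashed line is the level floor of 8.56 and the dotted line the background 95th percentile of 7.33. Heights compare within a gene only. The collicular point stands alone at the top for Tcf7l2 and Lef1, the bulb point for Frzb, Wnt7a and Sfrp1, and the pontine point for Dkk2, while the pontine point stands alone at the bottom for Fzd8, Sfrp2 and Fzd1.

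Of the feedback genes, Axin2 was highest in the colliculus, as Tcf7l2 and Lef1 were, and Axin1, Nkd1 and Apcdd1 were not. Axin2, the axin paralogue that canonical signalling induces, read 10.18 in the colliculus, 9.64 in the cerebellum, 9.55 in the pontine nucleus and 9.24 in the bulb, a lead of 0.54 that does not reach the size rule. Axin1, the constitutive scaffold, spanned only 0.16, with 9.90 in the colliculus. Nkd1, an inducible inhibitor that acts on Dishevelled, was highest in the cerebellum at 11.36, against 10.77 in the colliculus, 10.46 in the bulb and 9.69 in the pontine nucleus. Apcdd1, a membrane-bound inhibitor that is induced by the pathway, read 11.57 in the cerebellum, 11.40 in the bulb, 11.09 in the colliculus and 10.33 in the pontine nucleus. Nkd1 and Apcdd1 were thus lowest in the pontine nucleus, by 0.77 and 0.76 below the next array.

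Among the 19 ligands 7 passed the floor, and Wnt7a was the one called. It read 10.54 in the bulb, against 8.99 in the pontine nucleus, 8.66 in the colliculus and 8.07 in the cerebellum, a gap of 1.55 or 2.93-fold. Its close relative Wnt7b had another order: 9.79 in the cerebellum, 9.13 in the bulb, 8.92 in the colliculus and 8.28 in the pontine nucleus. These paralogues signal through beta-catenin in brain endothelium and in neurons. Wnt7a was lowest in the cerebellum and Wnt7b highest there.

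Wnt3, a ligand of the canonical branch, was high in both roof structures. It read 9.28 in the colliculus and 9.05 in the cerebellum, against 8.44 in the pontine nucleus and 7.98 in the bulb. Wnt5a, the typical non-canonical ligand, read 8.34 in the colliculus and between 9.06 and 9.31 in the other regions, a gap of 0.72 that misses the rule. Wnt4, Wnt9b and Wnt10a spanned 0.34, 0.21 and 0.41. The remaining 12 ligands lay under the floor on every array. Wnt1, the ligand of the midbrain-hindbrain boundary earlier in development, was among these and read 7.82 in the colliculus, 7.63 in the cerebellum, 7.45 in the bulb and 7.26 in the pontine nucleus. Wnt2b had the widest range of them, 1.01, with 8.46 in the colliculus against 7.89, 7.58 and 7.45 in the cerebellum, the bulb and the pontine nucleus. Wnt8b never exceeded the background level of 7.33.

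Among the 10 Frizzled receptors, which bind the ligands, 8 passed the floor, and 4 of the 10 had a range of 1 or more. Fzd1 read 8.83 in the pontine nucleus, against 9.95 in the bulb, 10.24 in the cerebellum and 10.83 in the colliculus, and was 2.17-fold under the next lowest array. Fzd8 read 8.18 in the pontine nucleus, against 9.37 in the colliculus, 9.38 in the cerebellum and 10.00 in the bulb, 2.28-fold under the next. Together with Sfrp2 these were 3 of 36 members called lower in the pontine nucleus, against 0.981% of all genes compared.

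Fzd2 and Fzd10 had other patterns. Fzd2 read 10.65 in the bulb, 9.91 in the cerebellum, 9.06 in the pontine nucleus and 8.53 in the colliculus, a range of 2.12. Fzd10 read 9.73 in the cerebellum and 9.38 in the colliculus, against 8.12 in the pontine nucleus and 8.04 in the bulb. It was the only member whose 2 highest arrays stood at least 1 log2 unit over the 2 lowest, a split that 1.76% of all genes compared had. Wnt3 was likewise higher in the cerebellum and the colliculus than in the other regions, with a smaller gap of 0.61.

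The other Frizzled genes varied little. Fzd3, which acts in planar polarity and axon guidance, lay between 11.33 and 11.77, and was highest in the pontine nucleus. Fzd6, Fzd7 and Fzd9 spanned 0.31, 0.59 and 0.35. Fzd4 and Fzd5 stayed under the floor. Of the co-receptors, Lrp6 spanned 0.10, from 10.15 in the cerebellum up to 10.25 in the bulb, and Lrp5 spanned 0.86, with 9.21 in the bulb and 8.35 in the pontine nucleus.

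The secreted antagonists and modulators, which bind Wnt ligands or block Lrp, held 4 of the 9 called members. In the bulb 3 of 36 members were called higher, against 0.972% of all genes compared. Frzb and Sfrp1 belong to the secreted Frizzled-related proteins, which carry a Frizzled-like domain that binds Wnts. Frzb read 9.93 in the bulb, against 7.26 in the cerebellum, 7.15 in the pontine nucleus and 6.86 in the colliculus. The other 3 values lie under the background level of 7.33, so the gap of 2.67 is a lower bound. Sfrp1 read 11.97 in the bulb, against 10.76 in the pontine nucleus, 10.57 in the cerebellum and 9.99 in the colliculus, 2.31-fold above the next.

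Sfrp2 was ordered differently from Sfrp1. It read 8.55 in the pontine nucleus, against 9.71 in the bulb, 10.65 in the colliculus and 11.24 in the cerebellum, a range of 2.69. The bulb was highest for Sfrp1 and second lowest for Sfrp2. Sfrp4 read 9.21 in the pontine nucleus and between 8.44 and 8.59 elsewhere. Sfrp5 stayed under the floor.

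Frzb is on the list of olfactory ensheathing and Schwann glia, of which 5 other genes passed the floor, and 3 of those 5 lay above the mean of the rest in the bulb. Npy and Erbb3 passed the size rule there, Npy with 12.08 in the bulb against 8.37 to 9.90 elsewhere. Sox10 and Foxd3 were also highest in the bulb, while Ngfr, S100b and Fabp7 were highest in the cerebellum. The mean level of the measured genes of that list without Frzb was 10.00 in the bulb, against 9.26 in the cerebellum, 9.01 in the pontine nucleus and 9.16 in the colliculus. Meningeal and fibroblast genes also lay above the mean of the rest in the bulb, for 7 of 7 above the floor. Their mean level over all 11 was 8.44 there, against 7.71, 7.54 and 7.82 in the cerebellum, the pontine nucleus and the colliculus. Most leads were small: Col1a1, Col1a2 and Col3a1 led by 0.37, 0.34 and 0.25 and Ptgds by 0.08. Crym was highest in the colliculus, at 9.62 against 9.06 in the bulb. Only Dcn, the fibroblast gene for decorin, passed the size rule, with 10.59 in the bulb, against 8.65 in the colliculus, 7.28 in the pontine nucleus and 7.08 in the cerebellum. The defining meningeal genes Lum and Aldh1a2 did not exceed 7.33 on any array. Their part in the Frzb, Sfrp1 and Wnt7a values was not tested.

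The Dickkopf genes encode inhibitors of the Lrp co-receptors, apart from Dkk3, whose role in the pathway is less settled. Dkk2 read 9.19 in the pontine nucleus, against 7.88 in the colliculus, 7.85 in the cerebellum and 7.49 in the bulb, 2.48-fold above the next. It was the 1 member of 36 called higher in the pontine nucleus, where 0.798% of all genes compared were, a share of 2.78% that rests on a single gene. Dkk2 passed the floor only through its pontine level. Dkk1 read 8.69 in the colliculus, against 8.02 (bulb), 7.85 (cerebellum) and 7.67 (pontine nucleus). Dkk3 read 9.28 in the colliculus and 9.18 in the cerebellum, against 8.59 in the bulb and 8.04 in the pontine nucleus. Dkk4 never exceeded the background level, and Wif1, which binds Wnts directly, lay just under the floor with 8.54 in the colliculus, against 8.13 in the cerebellum, 7.73 in the bulb and 7.53 in the pontine nucleus. The 21 members under the floor spanned between 0.10 and 1.01, with a median range of 0.34.

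The R-spondin axis sets how many receptors stand on the cell surface: R-spondins bind Lgr receptors and hold off the ligases Rnf43 and Znrf3, which remove Frizzled. No member of it was called, and the 3 Lgr genes all had a range of 1 or more with different orders. Lgr4 read 11.20 in the pontine nucleus, against 10.23 in the colliculus, 10.13 in the bulb and 9.74 in the cerebellum, a gap of 0.97 that just misses the rule. Lgr5, a target of the pathway and a stem cell marker in other tissues, read 9.94 in the bulb, against 9.03 in the pontine nucleus, 8.88 in the cerebellum and 8.71 in the colliculus. Lgr6 read 8.96 in the bulb, against 8.19 in the colliculus, 8.09 in the cerebellum and a lowest level of 7.96 in the pontine nucleus.

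Lgr5 and Lgr6 thus led in the bulb and Lgr4 in the pontine nucleus. Znrf3 read 10.22 in the cerebellum, with the bulb at 9.86, the colliculus at 9.76 and the pontine nucleus at 9.43. Rspo1 was the only R-spondin above the floor, with 8.74 in the colliculus and 8.01 in the pontine nucleus. Rspo2, Rspo3, Rspo4 and Rnf43 stayed under it.

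The pontine nucleus had the lowest level for 16 of the 36 members (44.4%), against 26% of all genes compared, and the highest for 5 (13.9%), against 28.4%. Over all 57 members it was the lowest for 30 (52.6%), against 32.7% of all genes. The cerebellum was the highest for 12 of 36 (33.3%), against 17.9% of all genes compared, and the lowest for 5 (13.9%), against 30.9%. The gap for the highest level in the cerebellum depended on the genes counted. Over all 57 members it was the highest for 19 (33.3%), against 28.7% of all genes, and the lowest for 6 (10.5%), against 21.5%. Among genes with a range of 1 or more the cerebellum was the highest for 5 of 20 members (25%), against 26%, and the lowest for 2 (10%), against 15.4%. Genes that vary widely were often lowest in the pontine nucleus in any case. Among genes with a range of 1 or more it was the lowest for 11 of 20 members (55%), against 42.3% of the 1632 genes of this kind. The share of members lies nearer to that of all genes there than without the limit on range.

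**Figure D3:**
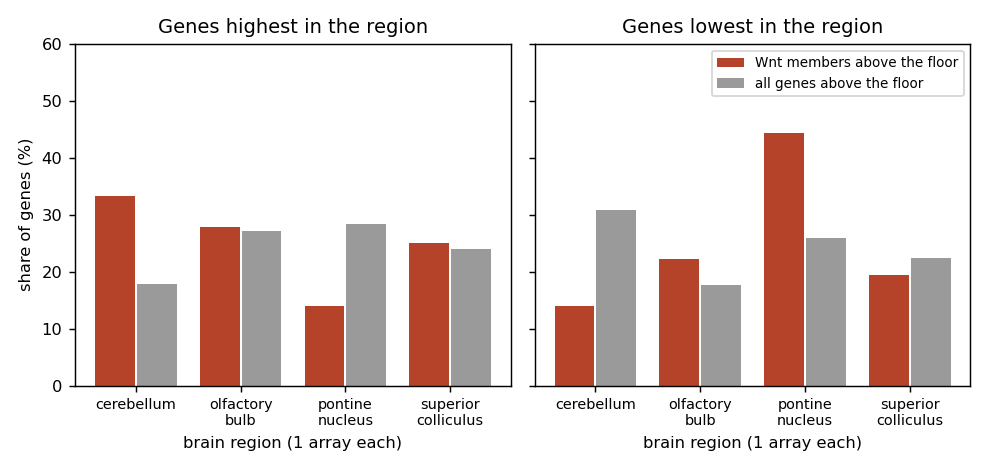
Bars give the share of genes, in percent, whose highest (left) or lowest (right) level of the 4 arrays was in each region, in red for the 36 Wnt members above the floor and in grey for all 10908 genes above the floor. The red bar for the lowest level in the pontine nucleus reaches 44.4%, against 26% in grey.

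The same levels were also read in pairs of regions, of which those with the pontine nucleus share its array and are not independent. The pairs reuse the levels ranked above and are not a second observation. The superior colliculus exceeded the pontine nucleus by 1 or more for 9 of 36 members (25%), against 4.12% of all genes compared. The bulb did so for 9 (25%), against 5.2%, and the cerebellum for 8 (22.2%), against 4.49%. Fzd1, Fzd8 and Sfrp2 were in all 3 sets, as their call as lower in the pontine nucleus requires. A difference of 1 needs a range of 1 or more, which 55.6% of members and 15% of all genes compared had. Among these, the colliculus exceeded the pontine nucleus by 1 or more for 9 of 20 members and 449 of 1632 genes. The bulb did so for 9 of the 20 and 567 of the 1632, and the cerebellum for 8 and 490. In the other direction the pontine nucleus exceeded the colliculus for 1 member, Dkk2 (2.78%), against 1.72%. It exceeded the bulb and the cerebellum for 2 each, Dkk2 and Lgr4 (5.56%), against 2.57% and 1.88%. Between the cerebellum and the colliculus, Fzd2 alone was higher by 1 or more in the cerebellum (2.78%), near the 3.08% of all genes compared. Tcf7l2 and Lef1 were higher in the colliculus (5.56%), against 2.63%. The olfactory bulb exceeded the cerebellum for Frzb, Lgr5, Sfrp1 and Wnt7a (11.1%), against 2.46%. The cerebellum exceeded the bulb for Fzd10, Sfrp2 and Wnt3 (8.33%), against 2.06%. The bulb exceeded the colliculus for Frzb, Lgr5, Sfrp1, Wnt7a and Fzd2 (13.9%), against 2.94%. The colliculus exceeded the bulb for Tcf7l2, Lef1, Fzd10 and Wnt3 (11.1%), against 2.73%.

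Progenitor and cell division genes were also low in the pontine nucleus, and in the colliculus as well. Of 12 genes of neural progenitors and radial glia 3 lay above the mean of the rest there, with a median difference of -0.43, against 0.58 in the cerebellum, 0.21 in the bulb and -0.26 in the colliculus. Of 11 measured cell division genes 0 lay above the mean of the rest in either region. The median was -0.82 in the pontine nucleus, and the colliculus was lower still at -1.25. Of the 16 members lowest in the pontine nucleus, 6 were highest in the colliculus, 3 ranked second there and 7 ranked just above the pontine nucleus. Fzd1 was among the 6, Sfrp2 ranked second and Fzd8 was among the 7. Where the pontine nucleus is lowest, only these 3 ranks are open to the colliculus. How all genes lowest in the pontine nucleus divide over these ranks was not counted. The part of progenitor content in the pontine values was not tested.

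Other genes of the pathway were read from lists of its parts. The cytoplasmic and nuclear machinery of canonical signalling included beta-catenin (Ctnnb1), the kinases Gsk3a and Gsk3b and the Dishevelled genes. Of its measured genes 29 of 29 passed the floor, with a median range of 0.34, close to the 0.39 of all genes compared. Of all genes compared 4.58% were called in some region, and of these 29 genes 0 were higher and 1 was lower. That was Tle4, a corepressor that binds TCF factors, which read 8.86 in the pontine nucleus, while the bulb read 10.18, the cerebellum 10.09 and the colliculus 10.91. Ctnnb1 itself read 12.13 in the pontine nucleus and between 12.82 and 12.88 elsewhere.

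Of 20 measured genes of Wnt secretion and extracellular modulation 16 passed the floor and 3 of those were called, against 4.58% of all genes compared. Wls, which carries Wnt proteins to the cell surface, read 9.08 in the pontine nucleus, against 10.10 in the bulb, 10.15 in the cerebellum and 10.51 in the colliculus. Ndp, which encodes norrin, a ligand of Fzd4 unrelated to Wnts, read 10.83 in the bulb, against 9.14 in the cerebellum, 8.10 in the colliculus and 7.53 in the pontine nucleus. Sostdc1, an antagonist of BMP and Wnt signals, read 7.28 in the bulb, against 8.89, 9.36 and 9.40 in the cerebellum, the pontine nucleus and the colliculus. Wls was low where Fzd1, Fzd8 and Sfrp2 were low, and Ndp was high where Wnt7a and Sfrp1 were high.

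Of 25 measured genes of non-canonical and planar polarity signalling 21 passed the floor, with a median range of 0.60, against 0.39 for all genes compared. Of these 21 genes 0 were called in any region, against 4.58% of all genes compared. Of 20 measured genes reported as pathway targets 14 passed the floor and 1 of those was called, against the same 4.58%. That was Neurod1, a neuronal transcription factor, which read 6.85 in the pontine nucleus against 9.18 to 12.30 elsewhere. Among these targets, Nkd2, a relative of Nkd1, read 9.80 in the colliculus, 8.90 in the cerebellum and in the bulb, and 7.92 in the pontine nucleus. Sp5, a transcription factor induced by the pathway in many tissues, read 9.23 in the colliculus, 9.04 in the cerebellum, 8.12 in the bulb and 7.84 in the pontine nucleus. Both were highest in the colliculus and lowest in the pontine nucleus without reaching the size rule, as were Dkk1, Dkk3 and Rspo1 among the members above the floor. Nkd2 and Sp5 were picked after their values were seen.

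**Figure D4:**
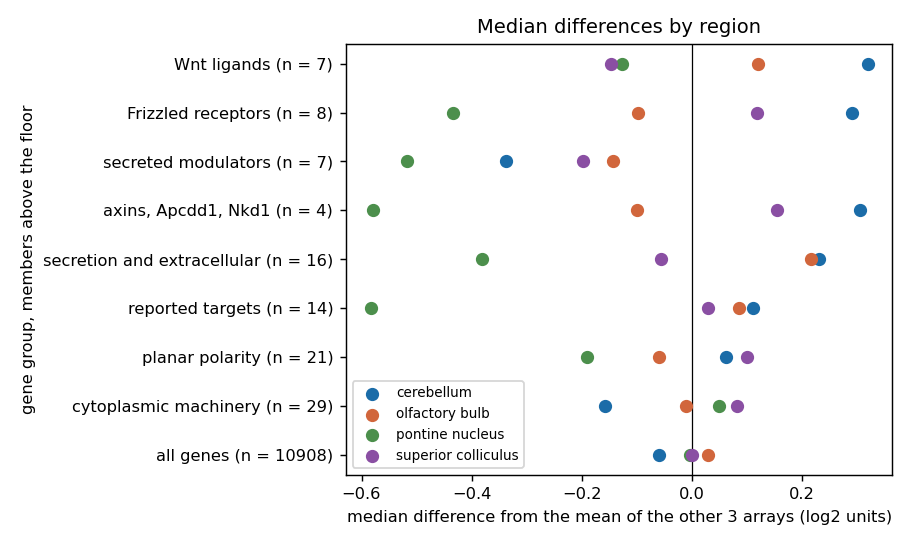
The horizontal axis gives the median difference of a group's genes from the mean of the other 3 arrays in log2 units, with 1 point per region, for 4 roles of the members, 4 lists of other pathway genes and all genes compared. The pontine median is the lowest of the 4 for receptors, secreted modulators, feedback genes, secretion genes, reported targets and planar polarity genes, while the cytoplasmic machinery lies within 0.16 of 0 in every region.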

How the data were processed

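RNA from each of 4 regions went to its own Affymetrix array, after Trizol and RNeasy extraction and labelling with the Ambion WT Expression Kit and the Affymetrix WT Terminal Labeling Kit, per the labels' protocols. Affymetrix Expression Console was used, per the submitters' processing notes. No version, genome build, normalization, summarisation or background correction is named, so each is not given in the sources used here. Per probe set and array, the table the authors deposited holds 1 log2 signal. The log2 scale was inferred from the values, which lie between 2.43 and 14.57, and the close array medians were taken as scaling by the authors, which can remove a difference in total RNA between regions.

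Of 35556 probe sets, 21789 had 1 gene symbol in the 2016 array annotation, 1621 had several and were not used, and 12146 had no entry. The probe set with the highest mean stood for a gene. Of the members only Wnt4 had several. The number of arrays limits the precision, and weak signals are compressed towards background. The members, gene lists, size rule and alternatives were chosen with earlier results of these data known. All members with a range of 1 log2 unit or more are given with every level, most others by their range or some of their levels, those under the floor mainly by a common range, and of each pathway list those past the size rule. Python 3.11.15, NumPy 2.4.6, pandas 2.3.3 and Matplotlib 3.10.9 were used.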

Additional observations from a re-analysis of the deposited data

How the results depend on the processing

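No paired analysis was possible because each region has 1 array and no test was made, and no replicate could be left out. The gaps of the 9 called members kept their direction and their side of 1 log2 unit with quantile normalization. Averaging a gene's probe sets could not change these gaps, because each of the 9 has 1 probe set. With no floor, and with the floor at the background 95th percentile, the counts of called members were unchanged, and 22 members then had a range of 1 or more. With the floor at the 75th percentile Dkk2, Frzb and Fzd8 were lost, leaving the pontine nucleus with 0 higher and 2 lower members and the bulb with 2 higher ones, and 10 instead of 20 had a range of 1 or more. With the floor on the mean level Dkk2 and Frzb were lost, so that the pontine count of higher members was again 0 and the bulb count 2. At 2 log2 units, 1 member was higher in the bulb and 2 in the colliculus, the pontine nucleus had 0 in either direction, and 7 had a range of 2 or more. Against the mean of the other arrays, the members called higher were 4 (cerebellum), 6 (bulb), 2 (pontine nucleus) and 3 (colliculus), and those called lower were 2 (cerebellum), 2 (bulb), 8 (pontine nucleus) and 3 (colliculus). The 16 members lowest in the pontine nucleus became 7 with the floor at the 75th percentile, 29 with the background floor and 30 with none, an alternative chosen after seeing the data. These counts also follow how many members pass each floor. Shares over all genes were taken at the main floor (44.4% of members against 26%) and with none (52.6% against 32.7%), and not at the other floors. By construction a stricter rule admits fewer members and a looser one more.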

Other observations

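Further cell types were read from marker lists. Of 9 choroid plexus genes only Otx2 and Sostdc1 passed the floor, and the defining gene Ttr read at most 7.71. Oligodendrocyte lineage genes, 7 of which passed the floor, had a median difference from the mean of the rest of 0.11 in the pontine nucleus, 0.04 in the colliculus, -0.07 in the cerebellum and -0.46 in the bulb. Microglial genes, 4 of which passed it, had medians between -0.21 in the pontine nucleus and 0.22 in the bulb. Of the olfactory sensory neuron genes only Adcy3 and Gnal passed the floor, and the median of these 2 was -0.30 in the bulb. Omp, Gng8, Stoml3, Cnga2 and Ano2 stayed under the floor.

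The further probe set of Wnt4 (10509267) read 8.46 (colliculus), 8.27 (bulb), 8.07 (pontine nucleus) and 7.98 (cerebellum), while the one that stood for the gene (10509273) read 9.09, 8.75, 8.78 and 8.88 in that order of regions. Both were highest in the colliculus, and they disagreed on which region was lowest.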
